A study of Homo sapiens with 60 samples.

Results

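The comparison described here sets the pooled lowest doses of 4 herbal extracts against the vehicle, to find the transcripts that differed with all 4 extracts in the same direction. The libraries were chosen by their titles, as the 12 labelled low dose of ethanol extracts of Liriopis seu Ophiopogonis Tuber and of Schisandrae Fructus, and of Longan Arillus and Zizyphi Semen, with the 3 labelled vehicle, which makes 15 of the 60 libraries of the series. Messenger RNA was sequenced from HT29, a human colorectal adenocarcinoma line, after 24 h with an extract or with DMSO, the solvent used as vehicle. Each extract was given at 20 µg/mL (n = 3 libraries), and the vehicle (n = 3) was 0.1% DMSO per the sample labels and 2% per the series description, a difference that could not be settled. No percentage of DMSO was found for the extract libraries. By their library names, Liriopis and Schisandrae form library set 9, Longan and Zizyphi set 10 and the vehicle set C1, and the labels do not say what these numbers mark. The titles name 1 batch for all. Extract, library set and DMSO therefore cannot be told apart in any comparison with the vehicle, and on which side a difference lies cannot be told either. Nothing in the labels says that the 3 libraries of a group came from separate cultures, so p-values measure only the spread between these libraries.

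Library totals were 18879796 to 35128954 expected counts at the low doses and 26739231 to 30446712 in the vehicle, and all 14 epithelial markers looked at (such as EPCAM, CDH1, KRT18 and VIL1) passed the filter on low counts, with 0 of 14 called in the pooled comparison, 1 lower with Longan alone and 2 called among the 4 low doses. Of markers of other cell types 2 of 9 for fibroblasts, 3 of 10 for leukocytes, 3 of 6 for endothelium, 3 of 8 for hepatocytes and 0 of 6 for red blood cells passed the filter, and none of these 11 was called in the pooled comparison, while 1 leukocyte marker was lower with Schisandrae alone and 1 called among the low doses. They stood under 5 CPM in every low-dose and vehicle library except LYZ and SERPINA1, whose mean was 1436 and 327 CPM at the low doses and 1516 and 343 CPM in the vehicle. CPM are counts scaled to library size, as edgeR computes them with TMM factors. The vehicle libraries differed more from each other than those of most low doses did. Between pairs of vehicle libraries the SD of the log2 difference over genes was 0.131 to 0.170, against 0.141 to 0.172 for Longan and 0.0819 to 0.119 for the other extracts. In bulk RNA, fewer cells of a kind and less RNA per cell cannot be told apart.

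Of 16408 genes tested, 930 (5.67%) were called between the pooled low doses and the vehicle by edgeR's quasi-likelihood test, at a Benjamini-Hochberg adjusted p under 0.05. At the low doses 410 (2.50%) were higher and 520 (3.17%) lower, and 3335 genes had an unadjusted p under 0.05. The differences were small, with a median of 0.181 log2 units in either direction over the genes called, and 17 higher and 18 lower genes reached 1.5-fold. All 12 low-dose libraries lay above all 3 vehicle libraries in 123 genes (0.750%) and below them in 164 (1.00%), of which 89 and 121 were called. Of 18 chaperone genes of the heat shock response 11 were lower at the low doses and 0 higher. The count depends on single vehicle libraries, since it was 1552 without vehicle replicate 1, 907 without replicate 2 and 74 without replicate 3.

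Set against the same vehicle one at a time, the Liriopis low dose gave 1036 calls (6.31%), 542 higher (3.30%) and 494 lower (3.01%), and the Schisandrae low dose 737 (4.49%), 387 higher (2.36%) and 350 lower (2.13%). The Longan low dose gave 723 (4.41%), 224 higher (1.37%) and 499 lower (3.04%), and the Zizyphi low dose 274 (1.67%), 102 higher (0.622%) and 172 lower (1.05%). Leaving out vehicle replicate 1 or 3 moved the counts to 1874 and 211 for Liriopis, 1625 and 79 for Schisandrae and 755 and 45 for Zizyphi, and leaving out replicate 3 moved that of Longan to 337. Of the extracts' own libraries, those of Liriopis gave 356 and 355 without replicate 2 or 3, of Schisandrae 294, 321 and 351 without replicate 1, 2 or 3, of Longan 53 and 1133 without replicate 1 or 2, and of Zizyphi 63, 73 and 55 without replicate 1, 2 or 3. In at least 1 of these 4 comparisons 1872 genes were called, 1211 of them in 1 only. Genes called in the same direction with all 4 extracts numbered 44 (0.268%), 23 higher (0.140%) and 21 lower (0.128%) at the low doses, of which 19 and 20 were protein-coding. They made up 4.25% of the Liriopis calls, 5.97% of the Schisandrae calls, 6.09% of the Longan calls and 16.1% of the Zizyphi calls. The 4 comparisons share the 3 vehicle libraries, so this count holds whatever is particular to those libraries and is given without a chance value. It was 142, 67 and 8 without vehicle replicate 1, 2 or 3, and 12 without Longan replicate 1. Without Schisandrae replicate 1, 2 or 3 it was 29, 27 and 29, without Liriopis replicate 2 it was 23, and without Zizyphi replicate 1, 2 or 3 it was 21, 20 and 15. In the pooled comparison 27 of the 44 (16 lower, 11 higher) were called whichever single library was left out. Without vehicle replicate 3, 16 (11 higher, 5 lower) were not called (adjusted p 0.05 to 0.159), RAPGEF5, EDN1, FKBP4 and MT-ND3 among them, and SRSF5 was not called without vehicle replicate 1 (adjusted p = 0.0611). Of the 44, 5 were called under each of the 27 alternatives tried, namely DNAJB1, HSPA8, HSPA1B, CCDC117 and TRIM2.

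**Figure D1:**
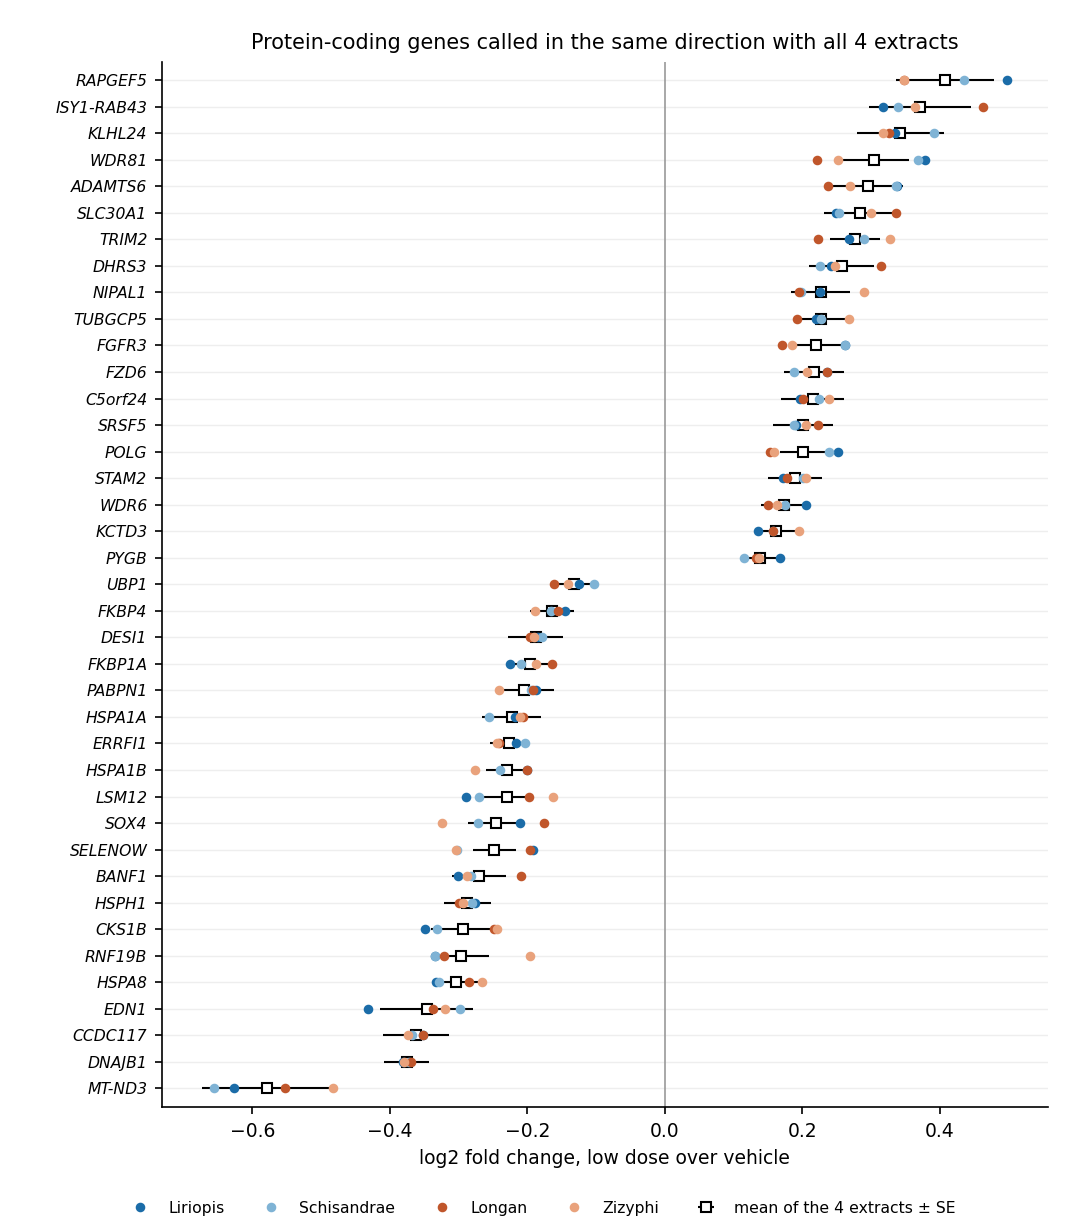
Log2 fold change of the low dose over the vehicle (x axis) for the 39 protein-coding genes called in the same direction with all 4 extracts (y axis). Circles are the single extracts, squares their mean with its standard error; RAPGEF5 at 0.41 leads the genes that were higher and MT-ND3 at -0.58 those that were lower.

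Cells answer misfolded protein through the heat shock factor HSF1, which binds promoters at inverted repeats of the unit GAA and raises transcription of chaperones. HSP70 proteins fold and refold clients, DNAJ proteins hand clients to them, HSP110 proteins such as HSPH1 exchange their nucleotide, and HSP90 with its cochaperones completes the folding of kinases and receptors. In unstressed culture these genes run at a basal level, and the transcripts of HSPA1A, HSPA1B and DNAJB1 are among those that move most with heat and other proteotoxic conditions.

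The units GAA and TTC, 2 bases apart (GAANNTTC or TTCNNGAA, each of which reads the same on both strands), were looked for in the 250 bases before each gene's start in RefSeq on GRCh38.p14, so that the promoters of the genes that were lower can be seen. All 18 heat shock genes had a promoter in the table. The pair stood in 5 of the 11 that were lower (45.5%), in 6 of all 18 (33.3%) and in 882 of 10341 promoters of protein-coding genes tested (8.53%). The pair with a further unit of alternating kind, again 2 bases on, stood in 2 of the 11 (18.2%) and in 30 of the 10341 promoters (0.29%). The windows are written 5′ to 3′ on the gene's strand, with the matched units in capitals, and come from HSPA8 (chr11:123062170-123062199 and chr11:123062345-123062374, minus strand), CHORDC1 (chr11:90223083-90223112, minus strand), DNAJA1 (chr9:33025064-33025093, plus strand), HSPA1A (chr6:31815426-31815455, plus strand) and HSPA1B (chr6:31827622-31827651, plus strand).
HSPA8, nearer window: cgggccccTTCTGGAAGGTTCtaagatagg
HSPA8, farther window: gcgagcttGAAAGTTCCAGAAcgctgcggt
CHORDC1: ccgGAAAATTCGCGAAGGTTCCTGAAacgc
DNAJA1: aaagggctccaGAAGATTCcacgagcgccg
HSPA1A: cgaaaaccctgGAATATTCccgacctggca
HSPA1B: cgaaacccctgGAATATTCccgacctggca
HSPA8 and CHORDC1 are the genes with the longer runs, and the windows of HSPA1A and HSPA1B are nearly the same. DNAJB1 and HSPH1 had no match in the bases searched, which says only that these letters were not there.

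DNAJB1, the DNAJ partner of inducible HSP70 (ENSG00000132002, chromosome 19, 14514770 to 14529770 on GRCh38), was at 80.7 to 89.6 CPM at the low doses with a median of 85.2, and at 106, 111 and 117 CPM in the vehicle. All 12 low-dose libraries lay below all 3 vehicle libraries, and the extracts hardly differed, at 84.98 ± 3.33 CPM with Liriopis, 85.4 ± 0.477 with Schisandrae, 86.1 ± 1.21 with Longan, 85.1 ± 4.44 with Zizyphi and 111 ± 5.28 in the vehicle (SD, n = 3 each). It fell by 0.38 ± 0.03 on the log2 scale (adjusted p = 4.62e-09), with 0.37 to 0.38 for each extract, and had the highest adjusted p of 0.000706 over the 27 alternatives.

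HSPA8, the constitutive HSP70 (ENSG00000109971, chromosome 11, 123057489 to 123063230), was at 2292, 2430 and 2566 CPM at the low doses (lowest, median and highest), against 2829, 3027 and 3212 CPM in the vehicle. HSPH1 (chromosome 13) was at 453, 473 and 479 CPM, against 516, 618 and 593 CPM in the vehicle. Neither gene had a low-dose library within the range of the vehicle, which the choice of genes to name in full required, as for DNAJB1. They fell by 0.30 ± 0.04 and 0.29 ± 0.03 (adjusted p = 3.98e-06 for each).

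HSPA1B, an inducible HSP70, was at 278, 299 and 316.5 CPM at the low doses (lowest, median and highest), against 333, 339 and 375 CPM in the vehicle, and fell by 0.23 ± 0.03 (adjusted p = 2.52e-05). Its neighbour HSPA1A encodes a nearly identical protein, so that reads can be split between them and each value is uncertain. HSPA1A was at 249.9 to 298 CPM at the low doses and at 297.5, 330 and 317 CPM in the vehicle, where the ranges overlap slightly, and fell by 0.22 ± 0.04 (adjusted p = 0.00206).

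Of the other 13 genes of the list, 6 were lower in the pooled comparison. These were HSPE1, the HSP10 gene of the mitochondrial matrix, at -0.31 ± 0.06, the HSP90 cochaperone CHORDC1 at -0.25 ± 0.05, the DNAJ gene DNAJA1 at -0.22 ± 0.04, the HSP70 cochaperone BAG3 at -0.20 ± 0.06, HSP90AA1 at -0.19 ± 0.05 and STIP1, which links HSP70 to HSP90, at -0.15 ± 0.03 (adjusted p 0.00225 to 0.0326). The libraries of the groups overlapped for each of these but CHORDC1, at 62.2 to 71.8 CPM at the low doses and 74.3, 87.7 and 75.8 CPM in the vehicle. The 7 that were not called included HSP90AB1 at -0.07, HSPA4 at 0.02 and HSPD1, the HSP60 partner of HSPE1, at 0.05. Over all 18 the median log2 fold change was -0.20, against -0.00 over all genes tested, and 16 of 18 were below 0. Single extracts gave 10 lower with Liriopis, 7 with Schisandrae, 9 with Longan and 7 with Zizyphi, with 5 lower in each of the 4. The pooled count was 11, 9 and 6 without vehicle replicate 1, 2 or 3.

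**Figure D2:**
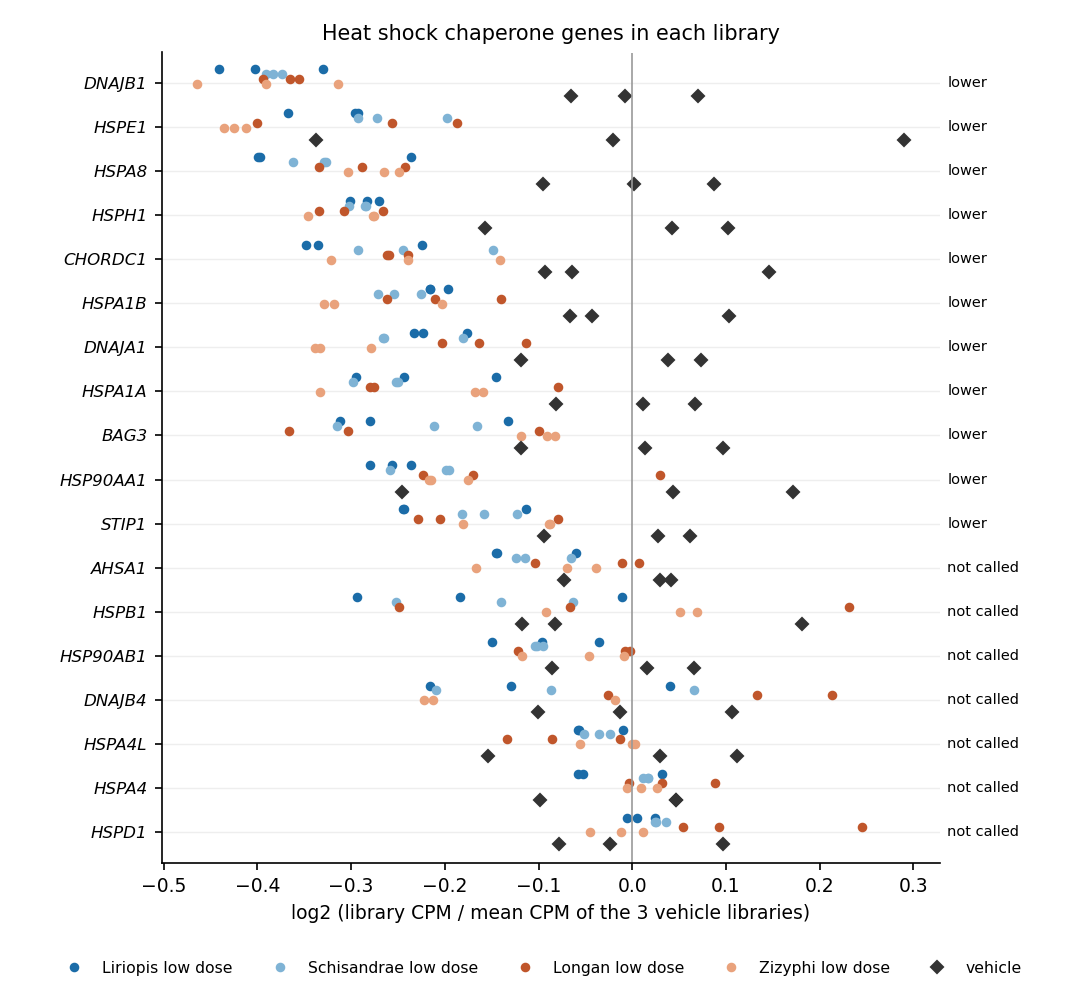
Level of 18 heat shock chaperone genes in each of the 15 libraries, as log2 of the library's CPM over the vehicle mean (x axis), with the pooled call at the right. Circles are low-dose libraries by extract and diamonds vehicle libraries; for DNAJB1 all 12 circles lie left of all 3 diamonds, while for HSPD1 they mix.

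FKBP4, an immunophilin of HSP90 complexes that was not in the list, also fell with all 4 extracts, by 0.16 ± 0.03 (adjusted p = 0.0027), as did the immunophilin gene FKBP1A by 0.20 ± 0.03 (adjusted p = 0.000424). HSPA1L, the HSP70 gene beside HSPA1A, fell by 0.68 ± 0.14 (adjusted p = 0.00331). It was at 0.962 to 2.05 CPM at the low doses and 2.85, 2.25 and 2.10 CPM in the vehicle, and was chosen for mention after its values were seen.

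The other genes lower with all 4 extracts have varied roles. CCDC117, a coiled-coil protein gene (ENSG00000159873, chromosome 22, 28772674 to 28789301), was at 26.8, 28.9 and 30.9 CPM at the low doses (lowest, median and highest), against 36.1, 37.0 and 39.1 CPM in the vehicle. It fell by 0.36 ± 0.05 (adjusted p = 2.13e-05), and no libraries overlapped. EDN1, which encodes the vasoconstrictor endothelin 1 (chromosome 6), was at 17.3, 21.6 and 24.5 CPM, against 26.2, 26.7 and 27.6 CPM in the vehicle, and fell by 0.35 ± 0.07 (adjusted p = 0.00225). ERRFI1, a feedback inhibitor of the EGF receptor, was at 76.2, 79.8 and 85.9 CPM, against 95.8, 96.4 and 91.5 CPM in the vehicle, and fell by 0.23 ± 0.03 (adjusted p = 7.31e-06). All low-dose libraries of both genes were below the vehicle.

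The ubiquitin ligase gene RNF19B fell by 0.30 ± 0.04 (adjusted p = 3.94e-05), the CDK subunit gene CKS1B by 0.29 ± 0.05 (adjusted p = 0.000467) and BANF1, which encodes a chromatin protein of the nuclear envelope, by 0.27 ± 0.04 (adjusted p = 0.000108). The selenoprotein gene SELENOW fell by 0.25 ± 0.03 (adjusted p = 1.11e-05) and LSM12 by 0.23 ± 0.03 (adjusted p = 0.000108). For these 5 genes too every low-dose library was below every vehicle library, which the choice of genes to name in full required. CCDC117 and EDN1 were chosen by the same rule. The closest was RNF19B, at up to 22.5 CPM at the low doses and 22.6 CPM in vehicle replicate 2. SOX4, a transcription factor, fell by 0.25 ± 0.04 (adjusted p = 0.00053) with ranges that overlapped. PABPN1, DESI1 and UBP1 were lower by 0.20, 0.19 and 0.13, and the brain cytoplasmic RNA BCYRN1 by 0.70 ± 0.11 (adjusted p = 0.000168). BCYRN1 was at 15.0 to 23.1 CPM at the low doses and 24.4, 26.7 and 37.7 CPM in the vehicle, and as it resembles Alu repeats its reads are uncertain. The 21st gene that was lower in all 4, MT-ND3, is described with the mitochondrial genes.

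Of the 23 genes higher with all 4 extracts, TRIM2, RAPGEF5 and KLHL24 are given in full. TRIM2, a ubiquitin ligase known from neurons (ENSG00000109654, chromosome 4, 153152342 to 153339320), was at 66.8, 72.7 and 76.5 CPM at the low doses (lowest, median and highest), against 59.0, 62.0 and 59.4 CPM in the vehicle. It rose by 0.28 ± 0.04 (adjusted p = 1.58e-05). RAPGEF5, an exchange factor for RAP GTPases (ENSG00000136237, chromosome 7, 22118238 to 22357144), was at 10.1, 10.9 and 12.5 CPM, against 9.30, 8.13 and 7.44 CPM in the vehicle, and rose by 0.41 ± 0.07 (adjusted p = 0.00116, and 0.0535 without vehicle replicate 3). KLHL24, a substrate adaptor of a ubiquitin ligase that acts on keratins (ENSG00000114796, chromosome 3, 183635568 to 183684477), was at 13.8, 16.2 and 17.5 CPM, against 13.3, 11.9 and 12.8 CPM in the vehicle, and rose by 0.34 ± 0.06 (adjusted p = 0.00155). No library of these 3 genes overlapped between the groups, which the choice of genes to name in full required.

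**Figure D3:**
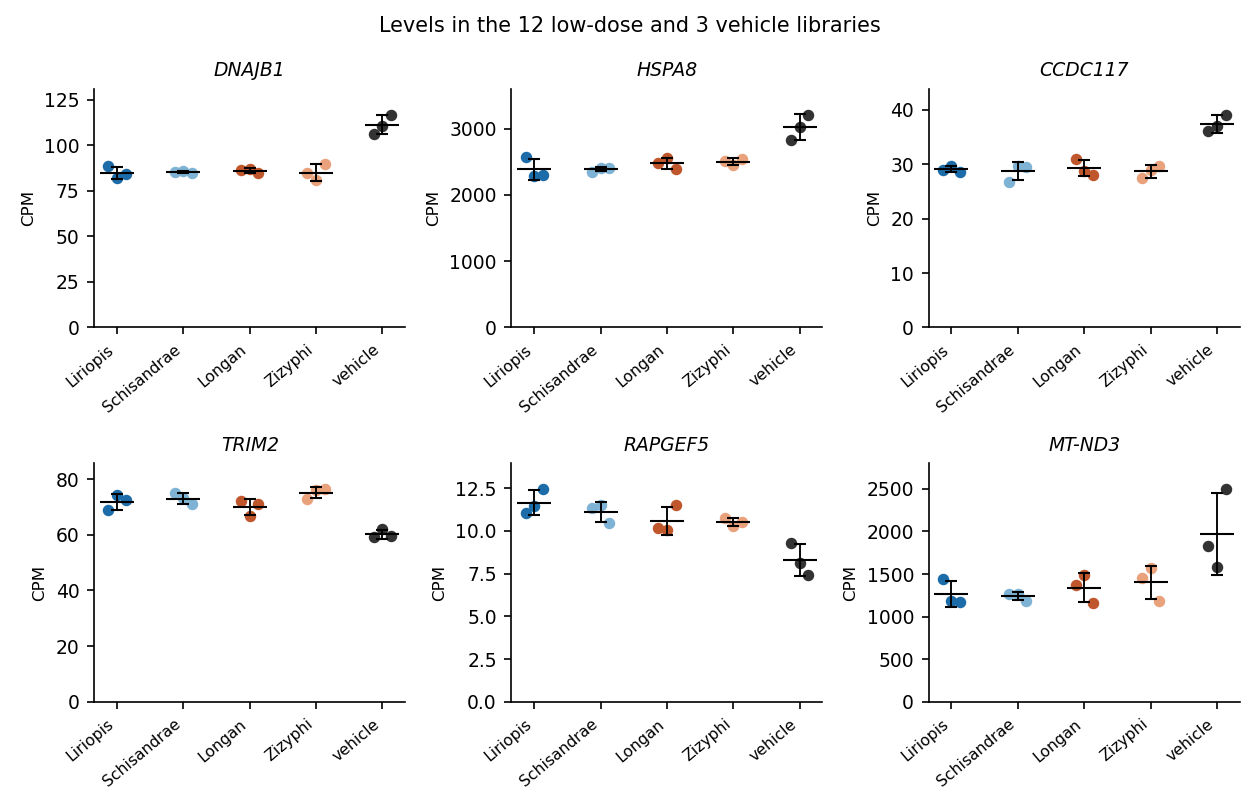
CPM (y axis, from 0) of 6 genes called with all 4 extracts, in the 3 libraries of each low dose and of the vehicle (x axis); bars are mean ± SD. For DNAJB1, HSPA8, CCDC117 and MT-ND3 every low-dose library is below the vehicle, and for TRIM2 and RAPGEF5 every one is above it. Lack of overlap between the groups was required when these genes were chosen.

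Also higher were WDR81 at 0.30 ± 0.05, the metalloprotease gene ADAMTS6 at 0.30 ± 0.05, the zinc exporter SLC30A1 at 0.28 ± 0.05, the retinal reductase DHRS3 at 0.26 ± 0.05, TUBGCP5, which encodes a subunit of the gamma-tubulin ring, at 0.23 ± 0.04, the FGF receptor FGFR3 at 0.22 ± 0.04, the Wnt receptor FZD6 at 0.22 ± 0.04 and the catalytic subunit of mitochondrial DNA polymerase, POLG, at 0.20 ± 0.03 (adjusted p 0.00053 to 0.00298). Of these SLC30A1 alone, which was not chosen for lack of overlap, had libraries that overlapped. It was at 33.9 to 42.0 CPM at the low doses and 31.9, 34.9 and 27.4 CPM in the vehicle. FGFR3 was at 37.0 to 43.3 CPM at the low doses and 36.1, 34.9 and 33.4 CPM in the vehicle. STAM2, KCTD3, NIPAL1, C5orf24, WDR6, SRSF5 and PYGB were higher by 0.14 to 0.23. The remaining genes are uncertain, since ENSG00000281181 and ENSG00000280614 hold identical values in all 15 libraries (93.6 to 198 CPM at the low doses and at most 51.6 CPM in the vehicle) and ISY1-RAB43 is a readthrough gene. SNORD3B-2, at 0.91 ± 0.20, is a small nucleolar RNA gene with close copies, and AFG3L1P a pseudogene.

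Of the 13 protein genes of the mitochondrial genome, which encode subunits of the respiratory chain and of ATP synthase, 8 were lower and 0 higher. Their median log2 fold change was -0.37. Among all genes tested 3.17% were lower and 2.50% higher. MT-ND3, a subunit of complex I, was at 1160, 1268 and 1566 CPM at the low doses (lowest, median and highest), against 1829, 1581 and 2501 CPM in the vehicle, and fell by 0.58 ± 0.09 (adjusted p = 0.000475). The call was lost without vehicle replicate 3 (adjusted p = 0.0629) and with 54 in place of 39 libraries in the fit (adjusted p = 0.0887). MT-ND3 was the only one of the 13 without overlap between the groups and the only one called with each extract. MT-ND6, the one protein gene on the light strand, was at 607, 763 and 1297 CPM, against 1733, 989 and 1240 CPM in the vehicle, and fell by 0.71 ± 0.14 (adjusted p = 0.00323, and 0.0621 without vehicle replicate 1).

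Single extracts gave 7 lower with Liriopis, 5 with Schisandrae, 9 with Longan and 1 with Zizyphi. The pooled count of lower mitochondrial genes was 3, 12 and 1 without vehicle replicate 1, 2 or 3. Mitochondrially encoded genes took 8.76 to 12.5% of the counts at the low doses (mean 10.4 ± 1.15, SD, n = 12), against 10.6 to 13.6% in the vehicle (12.5 ± 1.60, n = 3). This share did not pass over the 5 shares and counts tested (exact permutation test, two-sided, p = 0.0396, adjusted p = 0.0733, with 0.0044 the smallest p that the 15 libraries allow). The 10 highest genes took 9.12 to 12.1% at the low doses and 10.6 to 12.8% in the vehicle (exact permutation test, adjusted p = 0.0733). Without vehicle replicate 2 both shares passed (exact permutation test, adjusted p = 0.0366 each).

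**Figure D4:**
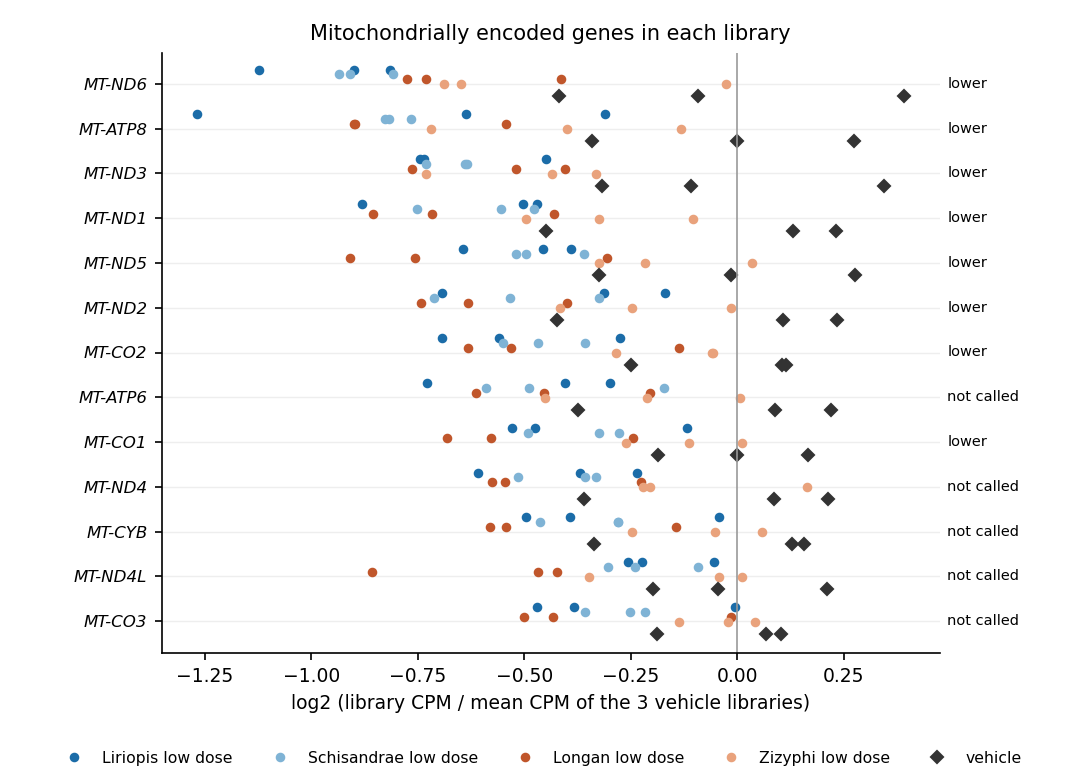
Level of the 13 mitochondrially encoded protein genes in each of the 15 libraries, as log2 of the library's CPM over the vehicle mean (x axis), with the pooled call at the right. Circles are low-dose libraries by extract and diamonds vehicle libraries; for each gene but MT-ND3 vehicle replicate 2 falls among the circles, as for MT-CYB at 7123 CPM.

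Beside the counts of the lists given next, 3.17% of all genes tested were lower and 2.50% higher. Genes of cytosolic ribosomal proteins were lower for 15 of 76 and higher for 0, with a median of -0.11. Among them were RPS26 at -0.32 ± 0.09, RPL26 at -0.29 ± 0.06 and RPS28 at -0.25 ± 0.07 (adjusted p 0.00432 to 0.0389), and many processed copies make the counts of such genes uncertain. RPS28 was at 141 to 179 CPM at the low doses and 152, 165.5 and 225.5 CPM in the vehicle, with overlap. The count was 42, 13 and 0 without vehicle replicate 1, 2 or 3, and with single extracts it was 10 (Liriopis), 10 (Schisandrae), 0 (Longan) and 23 (Zizyphi). As a share of all counts these genes took 4.64 to 5.58% at the low doses and 4.87 to 5.66% in the vehicle (exact permutation test, p = 0.475). Of 42 nuclear genes of oxidative phosphorylation 4 were lower, namely UQCRB of complex III at -0.27 ± 0.06, COX6A1 and COX7C of complex IV at -0.21 ± 0.05 and -0.18 ± 0.04 and SDHC of complex II at -0.12 ± 0.03. The count was 13, 3 and 0 without vehicle replicate 1, 2 or 3. Single extracts gave 3 lower with Liriopis, 4 with Schisandrae and 5 with Zizyphi, while Longan gave 3 higher and 0 lower, and 10 of the 42 were called among the low doses.

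Calls also differed with transcript length. In the fifth of genes whose longest transcript is shortest (69 to 1660 bases) 25 were higher and 142 lower with a median of -0.04, and in the fifth with the longest (5456 bases and more) 116 were higher and 77 lower with a median of 0.01. With Longan the order was turned round, at medians of 0.03 and -0.05. The part of transcript length in these results was not tested. By GC content, 181 genes were higher and 44 lower at 58.1 to 75.81%, and 100 and 70 at 26.74 to 41.14%. In between, lower calls led, with 40 and 152, 20 and 155, and 67 and 99 as GC content rose. The medians of these groups were only -0.03 to 0.03. DNAJB1 was at -0.37 and TRIM2 at 0.28 once the median of genes of like GC content was subtracted. Medians this small could hardly move either gene, so the part of GC content was not tested by it.

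With 3.17% of all genes lower, endoplasmic reticulum chaperones, which fold secreted protein, and related genes had 6 of 20 lower and 0 higher. They were MANF at -0.26 ± 0.05, HERPUD1 at -0.16 ± 0.05, the transcription factor XBP1 at -0.14 ± 0.03, PDIA3 at -0.14 ± 0.04, CALR at -0.14 ± 0.04 and HSPA5, the BiP gene, at -0.13 ± 0.03 (adjusted p 0.00154 to 0.041), and 9, 3 and 0 were lower without vehicle replicate 1, 2 or 3. Of 30 immediate early and MAPK feedback genes 3 were lower, the transcription factors MYC at -0.26 ± 0.05 (adjusted p = 0.00422) and FOSL1 at -0.34 ± 0.08 (adjusted p = 0.0109) and the growth factor response gene PHLDA1 at -0.19 ± 0.04 (adjusted p = 0.00306). MYC was at 265, 288 and 317 CPM at the low doses (lowest, median and highest), against 324, 343 and 385 CPM in the vehicle, with no overlap. The count was 4, 4 and 0 without vehicle replicate 1, 2 or 3.

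Of 6 genes known to respond to cold or to temperature 3 were higher and 0 lower, against 2.50% and 3.17% of all genes tested. The median log2 fold change of the 6 was 0.09, and 2 of them were below 0. Those called were the RNA-binding proteins CIRBP at 0.14 ± 0.04 (adjusted p = 0.0174) and RBM5 at 0.15 ± 0.03 (adjusted p = 0.00753) and the splicing factor SRSF5 at 0.20 ± 0.04 (adjusted p = 0.00518). CIRBP, named for its induction by cold, was at 44.7, 47.0 and 48.4 CPM at the low doses (lowest, median and highest), against 44.6, 40.8 and 42.5 CPM in the vehicle, where the groups met without overlap. The count was 2, 2 and 1 without vehicle replicate 1, 2 or 3, and 0 with 54 libraries in the fit.

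Genes of the cell cycle were called in 1 direction in each list, where 2.50% of all genes tested were higher and 3.17% lower. Of 36 S phase genes 5 were higher, among them the helicase subunits MCM7 at 0.14 ± 0.03 and MCM2 at 0.13 ± 0.03. Of 35 G2/M genes 5 were lower, among them the ubiquitin-conjugating enzyme UBE2C at -0.23 ± 0.04 and the spindle factor TPX2 at -0.13 ± 0.04. Log2 fold changes were below 0 for 30 of the 35 G2/M genes, 16 of the 36 S phase genes and 8348 of all 16408 genes tested. MCM7 was at 397 to 424 CPM at the low doses and 381, 364 and 375.5 CPM in the vehicle, and UBE2C at 97.5 to 112 CPM at the low doses and 122, 119 and 128 CPM in the vehicle. Neither overlapped. Without vehicle replicate 1, 2 or 3 the counts were 7, 3 and 1 for S phase and 9, 2 and 1 for G2/M.

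Of 25 cholesterol synthesis genes 4 were higher (among them STARD4 at 0.20 ± 0.05, MVD at 0.17 ± 0.04 and LSS at 0.12 ± 0.04) and MSMO1 lower at -0.16 ± 0.05. Over all genes tested 2.50% were higher and 3.17% lower. Of 28 targets of NRF2, the factor of the antioxidant response, 1 was higher, the cystine transporter SLC7A11 at 0.29 ± 0.06 (adjusted p = 0.00326), and 3 lower, TXN at -0.21 ± 0.05, AKR1C2 at -0.22 ± 0.07 and the ferritin gene FTH1 at -0.19 ± 0.06. Of 10 targets of the aryl hydrocarbon receptor, 35 interferon response genes and 18 clock genes 0 were called, with medians of 0.03, 0.12 and -0.00. Of 17 secretory lineage genes AGR2 at -0.15 ± 0.03 and REG4 at -0.22 ± 0.05 were lower, and of 6 metallothionein and zinc genes SLC30A1 was higher and MT1E lower at -0.34 ± 0.08. Without vehicle replicate 3 the counts were 1 and 0 for cholesterol synthesis, and 0 of the NRF2 targets, secretory or metallothionein genes was called.

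**Figure D5:**
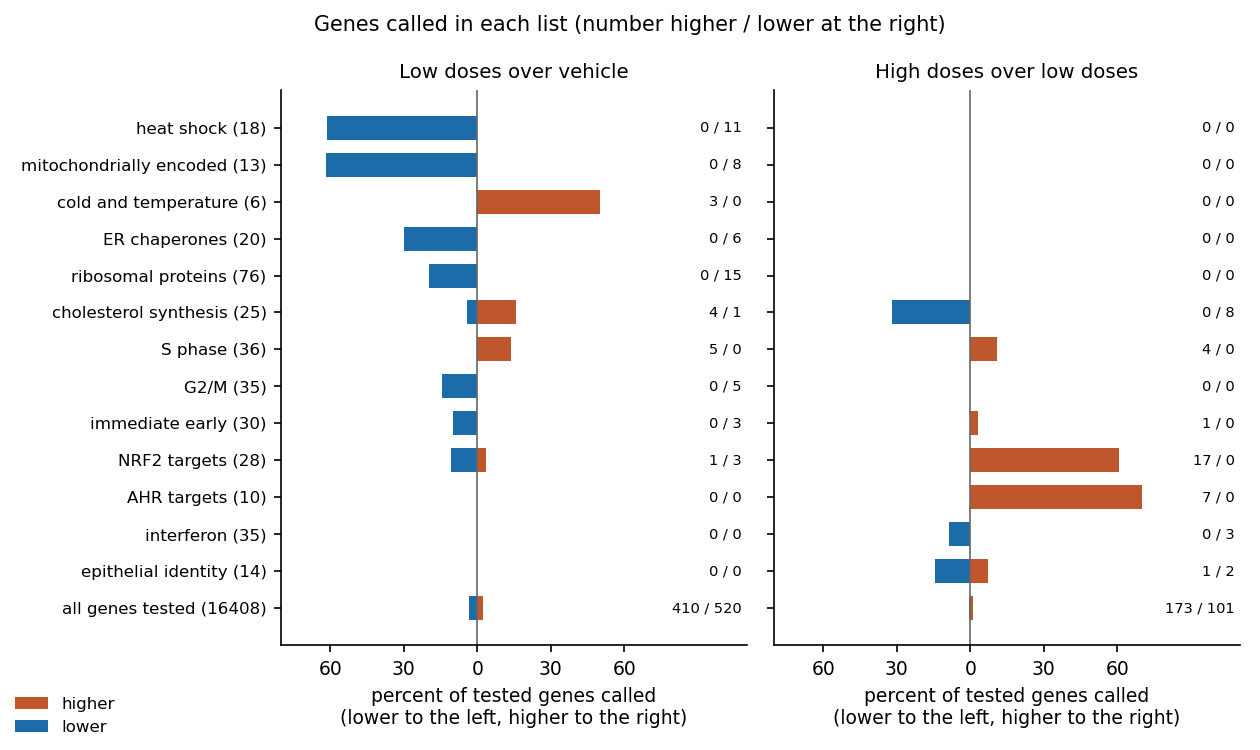
Share of the tested genes of 13 lists and of all genes that was called (x axis, percent; lower to the left, higher to the right) for the low doses over the vehicle and for the high over the low doses. Heat shock genes have 0 higher and 11 lower in the first comparison and 0 of each in the second, and targets of NRF2 have 1 and 3 in the first and 17 and 0 in the second.

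The largest fold changes of the pooled comparison mostly belong to low or noncoding transcripts. Of the 17 higher and 18 lower genes past 1.5-fold, 5 and 7 are protein-coding, and 1 and 2 of these reach a mean of 5 CPM in either group, namely CTAGE8, higher, and MT-ATP8 and MT-ND6, lower. CTAGE8, at 1.03 ± 0.23 (adjusted p = 0.00613), belongs to a family of near-identical copies and is uncertain. Several of the lower ones rest on 1 vehicle library; these were picked out once their values were known. The intermediate filament gene VIM, which marks mesenchymal cells, was at 0 to 0.870 CPM at the low doses with a median of 0.112, and at 2.85, 0.112 and 0.0698 CPM in the vehicle. ANTXR1 was at 0 to 0.448 CPM at the low doses and at 1.83, 0 and 0 CPM in the vehicle, and the keratin gene KRT7 at 1.69 to 3.27 CPM at the low doses and 6.42, 2.17 and 2.51 CPM in the vehicle. Among the vehicle libraries all 3 genes are high in replicate 1 alone. At the low doses Longan replicates 1 and 3 and Zizyphi replicate 2 were above vehicle replicates 2 and 3 for each of them. VIM was at 0.870, 0.448 and 0.337 CPM in these 3 low-dose libraries. The part of other cells in any of these libraries was not tested. TUBA1B-AS1 was at 0.0448 to 52.6 CPM at the low doses and at 172, 12.7 and 164 CPM in the vehicle. It lies antisense to a tubulin gene, and as it is not known whether the counting used strand, its reads cannot be told from that gene's.

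The 4 low doses also differed from each other. A test among the 4 groups, in which no vehicle library enters, called 1132 genes (6.90%), and 289 without Longan replicate 1. Of the 930 genes called in the pooled comparison 131 were called among the extracts, and of the 44 shared genes 0, a count that choosing genes called in 1 direction with each extract largely fixes. Liriopis and Schisandrae together (library set 9) against Longan and Zizyphi together (set 10) gave 518 calls (3.16%), 426 higher (2.60%) and 92 lower (0.561%) in set 9. Set and pair of extracts cannot be told apart. Single libraries moved this count to 1031 without Longan replicate 3, to 173 without Longan replicate 1, to 267 and 257 without Liriopis replicate 2 or 3, to 323, 315 and 337 without Schisandrae replicate 1, 2 or 3, and to 323 and 341 without Zizyphi replicate 1 or 3. PGGHG, an enzyme that trims glucose from collagen, was at 121.5 to 139.7 CPM in set 9, 70.7 to 103 CPM in set 10 and 100.1, 86.99 and 82.7 CPM in the vehicle, and was higher in set 9 by 0.60 ± 0.07 (adjusted p = 3.73e-06). CCDC78 was higher by 0.72 ± 0.11, MAMDC4 by 0.57 ± 0.10 and HSF4, a heat shock factor of the lens, by 0.53 ± 0.08 (adjusted p 9.54e-05 to 0.000595). MBD2, which binds methylated DNA, was lower in set 9 by 0.23 ± 0.06 (adjusted p = 0.0169), as were NINJ1 by 0.25, MIS18A by 0.23 and POMZP3 by 0.22. Over 19 alternatives the call was lost in 5 for MBD2, 8 for NINJ1, 9 for MIS18A and 7 for POMZP3. PGGHG, CCDC78, MAMDC4 and HSF4 kept it in all 19. Of the 18 heat shock genes 0 were called between the sets.

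Against the vehicle, the mean of set 9 gave 1679 calls (10.2%), 849 higher (5.17%) and 830 lower (5.06%). That of set 10 gave 208 (1.27%), 84 higher (0.512%) and 124 lower (0.756%). Heat shock genes were lower for 11 of 18 with set 9 and for 8 of 18 with set 10, mitochondrially encoded genes for 10 and 1 of 13 and ribosomal protein genes for 22 and 3 of 76. Both sets share the vehicle libraries.

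High and low doses can be set side by side within the library sets. The 44 shared genes were chosen with the same low-dose libraries. Whether their differences grow with dose therefore cannot be settled by this comparison. The mean of the 4 high doses (500 µg/mL) against the mean of the 4 low doses gave 274 calls (1.67%), 173 higher (1.05%) and 101 lower (0.616%) at the high doses. The count was 172 without Liriopis low-dose replicate 2 and 169 without Longan high-dose replicate 1. Against the vehicle the pooled medium doses (100 µg/mL) gave 1185 calls (7.22%), 565 higher (3.44%) and 620 lower (3.78%), and the pooled high doses 1567 (9.55%), 778 higher (4.74%) and 789 lower (4.81%), with 11 of 18 heat shock genes lower in each. Between high and low doses, of the 44 shared genes 3 were called (SELENOW at -0.20, SOX4 at -0.13 and DHRS3 at 0.12), and of the 18 heat shock genes 0 in either direction, with a median of -0.00. DNAJB1 was at 82.5, 85.1 and 88.3 CPM at the high doses (lowest, median and highest), 80.7, 85.2 and 89.6 CPM at the low doses and 106, 111 and 117 CPM in the vehicle. HSPA8 was at 2360, 2433 and 2539 CPM at the high doses, 2292, 2430 and 2566 CPM at the low doses and 2829, 3027 and 3212 CPM in the vehicle. Every library of both genes was below the vehicle at the high as at the low doses.

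Other gene groups did differ between doses. Over all genes tested 1.05% were higher and 0.616% lower at the high doses. At the high doses, 7 of 10 targets of the aryl hydrocarbon receptor were above the low doses, and 17 of 28 NRF2 targets, with medians of 0.19 and 0.13. CYP1A1, the P450 enzyme through which that receptor is usually read, was higher by 1.32 ± 0.12 (adjusted p = 2.92e-09), and at 0.05 ± 0.21 at the low doses over the vehicle, with means of 0.520 CPM at the low doses and 0.504 CPM in the vehicle. The retinaldehyde dehydrogenase ALDH1A3 was at 27.6, 34.0 and 37.1 CPM at the high doses (lowest, median and highest), 22.1, 24.7 and 26.5 CPM at the low doses and 25.3, 25.0 and 22.3 CPM in the vehicle. It was higher at the high doses by 0.40 ± 0.03 (adjusted p = 2.96e-12), and at 0.03 ± 0.04 at the low doses over the vehicle (adjusted p = 0.737). ADGRF1, an adhesion receptor, was higher at the high doses by 0.29 ± 0.03 (adjusted p = 8.73e-09) and at 0.05 ± 0.04 at the low doses over the vehicle. At the high doses 8 of 25 cholesterol synthesis genes were below the low doses, LSS at -0.12 (adjusted p = 0.00217) and MVD at -0.09 (adjusted p = 0.0291) among them. The high-over-low and the low-over-vehicle comparisons share the low-dose libraries.

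The low doses of the other extracts of the series, which come from other library sets and include the water extracts Yijin-tang and Soshiho-tang, share the same vehicle. DNAJB1 was at 74.1, 81.9 and 81.0 CPM with Yijin-tang at 20 µg/mL, at 81.4 and 82.7 CPM with Soshiho-tang at 20 µg/mL, at 81.5 CPM with Polygalae Radix at 15.2 µg/mL and at 85.1 CPM with Aucklandiae Radix at 14.8 µg/mL. HSPA8 was at 2140, 2283 and 2250 CPM with Yijin-tang, at 2349 and 2142 CPM with Soshiho-tang, at 2299 CPM with Polygalae Radix and at 2473 CPM with Aucklandiae Radix. Each of these 7 libraries was below the vehicle range for both genes. Yijin-tang replicate 2 stood apart, with 11.3% of its counts in ribosomal protein genes, against 4.95 to 5.28% in the rest of the 7. TRIM2 was at 80.4, 56.1 and 78.0 CPM with Yijin-tang, and at 73.9 to 78.05 CPM in the other 4 of these libraries, so that Yijin-tang replicate 2 was below the vehicle and the rest above it. In a fit of 52 libraries, which leaves that replicate out, DNAJB1 was lower by 0.52 ± 0.05 with Yijin-tang and by 0.44 ± 0.05 with Soshiho-tang (adjusted p = 8.42e-09 and 3.8e-07).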

How the data were processed

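Messenger RNA of HT29 cells was sequenced as paired reads of 100 bases. The authors deposited expected counts per gene; per the submitters' processing notes, FastQC 0.11.9, Trim Galore 0.6.5, STAR 2.7.3a, RSEM 1.3.3 and GRCh38 were used. The annotation release and the use of strand in counting are not given in the sources used here. Expected counts were rounded to whole numbers, and 89.9% were within 1e-09 of one as deposited. Symbols and positions are from GENCODE 29 on GRCh38, for 56558 and 57055 of 60675 IDs.

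The 12 low-dose and 3 vehicle libraries were fitted with the medium and high doses of the same extracts, 39 libraries in 13 groups, by edgeR 4.0.16 (R 4.3.3) with filterByExpr, TMM factors and the quasi-likelihood test. Contrasts were the mean of the 4 low-dose coefficients minus the vehicle, each extract minus the vehicle, an F test among the 4 low doses, library set 9 minus set 10, and the mean high minus the mean low dose. P-values were adjusted by Benjamini-Hochberg over 16408 genes and called under 0.05. The standard error is the log2 fold change over the square root of F. Shares of counts per library were compared by exact permutation tests. CPM were scaled by TMM over all 60 libraries, which held 18161717 to 35128954 counts. This depth bounds the counting error, and only the spread between libraries enters the tests.

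Genes named in full were protein-coding, called in the same direction in the pooled and all 4 single comparisons, at a mean of 5 CPM or more and without overlap between low-dose and vehicle libraries, up to 12 each way, with the leading called genes of 37 lists and of the contrasts between sets and doses. The members, lists and alternatives were chosen with earlier results of these data known. Simulated data for the pooled comparison over 16231 genes held 50 altered genes at each size of effect. Recovery was 90% at 1.2-fold, 86% at 1.3-fold, 98% at 1.5-fold and 100% at 2-fold, with 5.08% false calls. Whether these rates hold for the real libraries, whose pooled count was 74 to 1552 with single libraries left out, was not tested. Alternatives were DESeq2 1.42.0, its size factors, no filter, other libraries in the fit, a replicate block, stricter thresholds, subtraction of the median by GC content and each library left out. Replicate numbers were not used to pair the libraries, since no pair of groups had correlations over 0.1 for all 3 numbers. Still, the library of the same number was the closest for all 3 numbers between Schisandrae and Longan (0.1 to 0.193). This also held between Schisandrae and Zizyphi (0.048 to 0.069), and for at most 2 numbers in any other pair of groups. Whether the numbers pair the libraries is therefore not settled. Some genes that the rule would name are not reported here.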

Additional observations from a re-analysis of the deposited data

Results flagged for a closer look

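For 8 genes given in the text the effect of the low dose over the vehicle differed between the 4 extracts, by edgeR's quasi-likelihood test among the 4 low doses. PGGHG had log2 fold changes of 0.59 with Liriopis, 0.53 with Schisandrae, -0.06 with Longan and -0.02 with Zizyphi (adjusted p = 1.215e-05). CCDC78 had 0.91, 0.72, 0.11 and 0.08 with Liriopis, Schisandrae, Longan and Zizyphi, the order kept for each gene here (adjusted p = 0.0002583), HSF4 had 0.62, 0.48, 0.07 and -0.04 (adjusted p = 0.000313), and MAMDC4 had 0.64, 0.76, 0.12 and 0.14 (adjusted p = 0.001387). In these 4 genes both extracts of library set 9 were above both of set 10. This follows from the choice of these genes, as they were named for being higher in set 9 without overlap. MBD2, given below, was likewise named for being lower in set 9.

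COX7C, a subunit of complex IV, had -0.16, -0.21, -0.03 and -0.31 (adjusted p = 0.006045), lowest with Zizyphi. AREG, a ligand of the EGF receptor, had -0.39, -0.34, -0.15 and -0.18 (adjusted p = 0.0157). LGR5, a receptor of intestinal stem cells, had 0.23, 0.15, 0.03 and 0.11 (adjusted p = 0.0255), and MBD2 had -0.19, -0.31, -0.05 and 0.02 (adjusted p = 0.02577).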

How the results depend on the processing

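The pooled count of 930 was 45 with 54 libraries in the fit, 334 with the 15 low-dose and vehicle libraries alone, 358, 162 and 1159 with vehicle replicate 1, 2 or 3 as the only vehicle library, 1679 for set 9 and 208 for set 10. Leaving out each library gave 74 to 1552. With 54 libraries the counts were 83 (Liriopis), 27 (Schisandrae), 18 (Longan), 6 (Zizyphi), 11 (among the low doses), 37 (set 9 against set 10), 38 (high against low) and 4 (shared by all 4). With 15 libraries they were 369 (Liriopis), 148 (Schisandrae), 100 (Longan), 35 (Zizyphi), 346 (among), 146 (sets) and 10 (shared). The biological coefficient of variation was 4.81% over 39 libraries, 9.71% over 54 and 4.76% over 52. The 52, chosen after seeing the data, leave out Yijin low-dose replicate 2 and Soshiho high-dose replicate 3, and gave 986 pooled calls (884 of the 930 among them), 1077 (Liriopis), 812 (Schisandrae), 819 (Longan), 270 (Zizyphi), 1292 (among), 643 (sets), 305 (high against low) and 50 (shared). Without the filter on low counts the counts were 1181 (Schisandrae), 626 (Zizyphi), 1941 (among), 965 (sets), 430 (high against low) and 116 (shared). DESeq2 gave 461 for Zizyphi and 78 shared genes. The shared genes were 9 at an adjusted p under 0.01 and 3 at 1.5-fold or more. These 3 were ENSG00000280614, ENSG00000281181 and SNORD3B-2, none of them protein-coding and all uncertain as said above. The first 2 hold identical values in all 15 libraries.

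Single libraries left out gave 211 to 1874 for Liriopis, 79 to 1625 for Schisandrae, 53 to 1133 for Longan, 45 to 755 for Zizyphi, 289 to 1267 among the low doses, 173 to 1031 between the sets, 169 to 359 between doses and 8 to 142 shared genes. The low-dose minus vehicle difference in mitochondrial share was -2.99 to -1.52 points, in ribosomal share -0.370 to 0.0224 (above 0 without vehicle replicate 3), in histone share 0.000331 to 0.000476, in the share of the 10 highest genes -2.30 to -1.18 and in genes over 1 CPM 42.7 to 127. Over protein-coding genes alone the differences of -2.05 (mitochondrial), 0.000396 (histone) and -1.68 (10 highest) points and of 51.5 genes passed (exact permutation test, adjusted p = 0.0495 each), and over all genes those in mitochondrial, histone and 10 highest share passed without vehicle replicate 2 (exact permutation test, adjusted p = 0.0366 each). With vehicle replicate 1 as the only vehicle library the log2 fold changes of HSPE1 (0.0232), UQCRB (0.0605), MT1E (0.0574) and RPS28 (0.0011) were above 0. The cause of these changes was not tested.

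With a replicate block the pooled count was 1036 (918 of the 930 among them). The single extracts gave 1142 (Liriopis), 862 (Schisandrae), 798 (Longan) and 324 (Zizyphi), and 1260 (among), 595 (sets), 300 (high against low) and 54 (shared) were called. Whether replicate numbers pair the libraries is not settled.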

Other observations

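Several genes outside the groups above were called in the pooled comparison as members of other lists. ACTB, the cytoskeletal actin gene, was at 3739 to 4483 CPM at the low doses and 4442, 4420 and 4935 CPM in the vehicle, and was lower by 0.17 ± 0.04 (adjusted p = 0.00798). The chemokine gene CXCL8 was at 5.85 to 7.89 CPM at the low doses and 7.504, 8.70 and 8.69 CPM in the vehicle, and was lower by 0.28 ± 0.08 (adjusted p = 0.0221). ZMAT3, a p53 target that binds RNA, was at 15.3 to 19.7 CPM at the low doses and 20.4, 21.6 and 20.99 CPM in the vehicle with no overlap, and was lower by 0.22 ± 0.05 (adjusted p = 0.0113). P4HA1, a collagen prolyl hydroxylase, was lower by 0.16 ± 0.05, and LDHA, a lactate dehydrogenase, by 0.13 ± 0.04. SREBF1, the transcription factor of lipid synthesis, was higher by 0.16 ± 0.04 (adjusted p = 0.0283), and ULK1, the kinase that starts autophagy, by 0.21 ± 0.06 (adjusted p = 0.0166). BOP1, a ribosome biogenesis factor, was higher by 0.18 ± 0.04 (adjusted p = 0.00371). None of these 8 genes was called without vehicle replicate 3 (adjusted p 0.0912 to 0.440). Their lists had few members called, with 1 of 16 YAP targets, 1 of 14 NF-kB and chemokine genes, 1 of 19 p53 targets, 2 of 30 hypoxia and glycolysis genes, 1 of 13 fatty acid synthesis genes, 1 of 20 autophagy and lysosome genes and 1 of 30 ribosome biogenesis genes, against 5.67% of all genes tested.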
